A study of Danio rerio and Oryzias latipes with 22 samples.

Results

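The Cxcl12 chemokine axis was followed through 6 genes taken by their exact symbols in the deposited count tables. In zebrafish these were 5 of the 28281 non-mitochondrial symbols that all samples shared, namely the ligand genes cxcl12a (ENSDARG00000037116) and cxcl12b (ENSDARG00000055100), the signalling receptor genes cxcr4a (ENSDARG00000057633) and cxcr4b (ENSDARG00000041959), and the atypical receptor gene ackr3b (ENSDARG00000058179). In medaka it was 1 of 23831 such symbols, a-sdf1a (ENSORLG00000027241), whose name marks it as a ligand gene. The remaining genes of the axis in the lists were read beside them. These were zebrafish ackr3a and medaka cxcl12, cxcr4a and ackr3a, together with medaka CXCR4, a symbol in capitals that was added after its values were seen.

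Single-cell RNA sequencing (10x Chromium) had been run on dissociated whole ventricles of 6 to 18 month old fish, with wild-type zebrafish of the Tübingen strain and medaka of the CAB strain. Zebrafish regenerate heart muscle after injury, and medaka do not. The groups were uninjured hearts (4 zebrafish and 4 medaka samples), hearts at 3 days post injury (d.p.i., 3 and 3 samples) and hearts at 14 d.p.i. (6 and 2 samples), after cryoinjury of the ventricle. The study treats the samples of a time point as biological replicates. The number of hearts in each is not given in the sources used here, and every p-value measures the spread between samples.

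Cxcl12, also called SDF-1, is a secreted chemokine that binds Cxcr4, a G-protein-coupled receptor that steers migrating cells and holds leukocytes in tissues. Ackr3 (also called Cxcr7) binds the same ligand, takes it up and removes it from the tissue. Teleosts keep duplicate copies of several of these genes. In zebrafish, cxcl12b and cxcr4a are known for their part in the formation of the coronary vessels.

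In total, 80138 barcodes with at least 200 genes and at most 40% mitochondrial UMIs were kept, 48409 of zebrafish (1705 to 6039 per sample) and 31729 of medaka (2751 to 4855). This limit counted only symbols that begin with mt- or read mt. Before the filter these held 5.16% to 26.3% of the UMIs of a zebrafish sample, and all mitochondrial genes 24.8% to 75.6%. In medaka both shares were the same, so the limit was unlike between the species. The UMIs of a sample summed to between 11107238 and 75811359, and the median per cell lay between 974 and 6448. Clusters were named from marker lists as cardiomyocytes, endothelial, epicardial, mural, erythroid, leukocyte and thrombocyte cells, and the axis genes themselves took no part in the clustering. No class was given to 7.63% of zebrafish and 5.40% of medaka cells. Any pair of libraries shared at most 10 barcodes. Zebrafish uninjured replicates 1 and 2 had been counted with an earlier version of the software on another gene list, so results that changed without them are also given without them. Levels are counts per 1000000 UMIs of these shared non-mitochondrial genes (CPM) of a class in a sample with at least 10 of its cells, and n counts samples.

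The 2 zebrafish ligand genes were read from partly different cells, and mural cells held both. Among the classes named above, cxcl12a had its highest mean in cells of the epicardium, the cell layer that covers the heart. Epicardial cells had 566 ± 278 CPM (mean ± SD, n = 13). Mural cells, the pericytes and smooth muscle cells around vessels, had 473 ± 310 CPM (n = 9), and endothelial cells 73.0 ± 97.8 CPM (n = 13). Epicardial cells were above mural cells in 7 of 9 samples, a difference that did not exceed the spread between samples (exact permutation within samples, two-sided p = 0.469, adjusted p = 0.643 over 36 pairs of neighbouring classes). Mural cells were above endothelial cells in 8 of 9 samples, which did not pass after adjustment (exact permutation p = 0.00781, adjusted p = 0.0562). Endothelial cells in turn were above cardiomyocytes, at 5.45 CPM, in 12 of 13 samples (exact permutation, adjusted p = 0.00879). This order is of the whole class. Endothelial cells outside the lymphatic-like and coronary-like clusters described below averaged 2.28, 1.42 and 2.24 CPM in uninjured, 3 d.p.i. and 14 d.p.i. samples. Cardiomyocytes averaged 3.54, 15.1 and 1.93 CPM there.

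**Figure D1:**
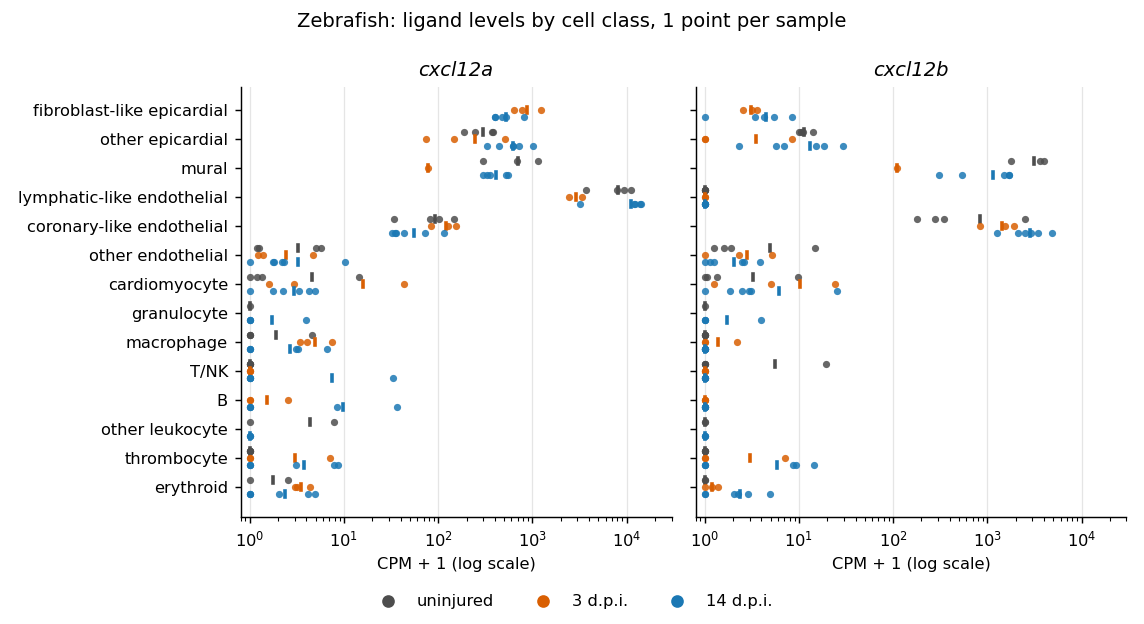
Level of cxcl12a and cxcl12b in zebrafish cell classes on a log scale of CPM + 1, with 1 point per sample with at least 10 cells of the class (any number of lymphatic-like cells), coloured by time point, and a tick at the mean. Epicardial, mural and lymphatic-like endothelial cells lead for cxcl12a, and coronary-like endothelial cells (mean 1905 CPM) and mural cells (1701 CPM) lead for cxcl12b.

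After injury, cxcl12a was higher in the epicardial class at 3 d.p.i. The level was 242, 369, 182 and 381 CPM in the 4 uninjured samples and 1127, 762 and 627 CPM in the 3 samples at 3 d.p.i. At 14 d.p.i. it ran from 331 CPM over a median of 593 CPM to 934 CPM (n = 6). Every sample at 3 d.p.i. stood above every uninjured sample, while the 14 d.p.i. range took in the upper uninjured values. The log2 fold change at 3 d.p.i. against uninjured was 1.30 ± 0.40 (SE), with an adjusted p of 0.0232 by edgeR's quasi-likelihood test with Benjamini-Hochberg adjustment. All adjusted p-values of levels between time points come from this test unless DESeq2 is named, and those of shares of cells from exact permutation. In this comparison 30.0% of the 11641 genes tested in epicardial cells passed (16.0% upwards), so calls were frequent there. Without 3 d.p.i. replicate 1 the change was 1.1 (adjusted p = 0.0877 by edgeR), and without replicate 2 it was 1.34 (adjusted p = 0.0592), so the call rested on those samples. At 14 d.p.i. the change against uninjured was 1.04 ± 0.35 with an edgeR adjusted p of 0.134, where 1.62% of genes passed. DESeq2 gave 0.0494 there.

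The make-up of the epicardial class changed between the same time points. Cells of the class with high levels of fibroblast genes such as collagens and periostin, called fibroblast-like epicardial cells here, made up 0%, 0%, 0.680% and 0% of it in the uninjured samples and 89.0%, 94.5% and 90.2% at 3 d.p.i. At 14 d.p.i. their share ran from 2.27% to 41.5%. Fibroblast-like cells had 1242, 775 and 632 CPM of cxcl12a at 3 d.p.i. and 401 to 804 CPM in the 5 samples at 14 d.p.i. that held enough of them. Markers of cardiomyocytes in the epicardial class moved too, with all 20 found at 3 d.p.i., from a sum of 426 to 1874 CPM in uninjured to 83.5 to 160 CPM in 3 d.p.i. and 146 to 1453 CPM in 14 d.p.i. samples, and their part in the result was not tested. Over all time points fibroblast-like epicardial cells averaged 656 CPM (n = 8, none uninjured), mural cells 473 CPM (n = 9) and the other epicardial cells 436 CPM (n = 13). These means cover unlike samples. The other epicardial cells averaged 295 CPM in uninjured samples. At 14 d.p.i. they averaged 628 CPM, inside the range of the fibroblast-like cells at that time point.

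Among the other epicardial cells alone, cxcl12a was not above uninjured at 3 d.p.i. The uninjured samples had 242, 369, 188 and 381 CPM, and the 3 d.p.i. samples 145, 74.1 and 508 CPM from 15, 12 and 11 cells. At 14 d.p.i. the level ran from 332 CPM over a median of 627 CPM to 1015 CPM. The log2 change at 3 d.p.i. was -0.85 ± 0.53 (edgeR adjusted p = 0.315, with 11.3% of genes passing), and at 14 d.p.i. against uninjured 1.16 ± 0.44 (adjusted p = 0.211, with 1.23% passing). The other epicardial cells had more cxcl12a at 14 than at 3 d.p.i., by 2.01 ± 0.53 (edgeR adjusted p = 0.0233), in a comparison where 10.8% of genes passed and which rests on 38 cells at 3 d.p.i. The rise of the whole class at 3 d.p.i. therefore stood beside a change in which epicardial cells were counted, and its part in the rise was not tested.

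The share of epicardial cells with at least 1 UMI of cxcl12a moved in the same order, with 31.2% ± 15.8 in uninjured, 91.5% ± 3.23 in 3 d.p.i. and 54.9% ± 8.12 in 14 d.p.i. samples (SD, n = 4, 3 and 6). The epicardial cells at 3 d.p.i. were also deeper, with a median of 27354 UMIs against 6418 in uninjured hearts and 5545 at 14 d.p.i. Thinned to 1000 UMIs per cell, the shares were 17.1%, 46.5% and 30.1%. For comparison, 0.26% of erythroid cells, which should lack the gene, had a UMI at a median of 695 UMIs. The exact permutation test over samples gave p = 0.0571 at 3 d.p.i., the smallest that 3 against 4 samples allow, and p = 0.0286 at 14 d.p.i., with an adjusted p of 0.445 for both over 179 comparisons of shares.

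Most cxcl12a of the class named endothelial came from very few cells. A small cluster with the lymphatic markers prox1a, lyve1b, flt4, mrc1a and stab2 (354 to 634 CPM), called lymphatic-like here, held 53 of 15602 zebrafish endothelial cells, found in 11 of 13 libraries. It gave 4807 of the 5476 endothelial cxcl12a UMIs (87.8%). Its level was 2425 CPM in the lowest library, 9341 CPM in the median and 14177 CPM in the highest, the highest of the classes. The vessel gene cdh5 stood at 2.60 CPM in these cells and kdrl at 74.9 CPM, while the epicardial genes tcf21 and tbx18 were at 0.966 CPM and 0 CPM. With cdh5 this low, the place of these cells in the endothelial class rests on the lymphatic markers and is not settled. The cluster had no UMI of cxcl12b, cxcr4a or cxcr4b in its 53 cells, which allows a share of cells with a UMI of up to 5.66%, and 11 UMIs of ackr3b.

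The lymphatic-like cells also bear on the time course of the endothelial class. They gave 1744 of 1946 endothelial cxcl12a UMIs in uninjured samples (89.6%), 114 of 298 at 3 d.p.i. (38.3%, from 5 cells) and 2949 of 3232 at 14 d.p.i. (91.2%). In the whole class, cxcl12a was 63.8, 53.2, 40.5 and 240.2 CPM in uninjured and 14.03, 9.27 and 17.2 CPM in 3 d.p.i. samples, and at 14 d.p.i. it ran from 5.37 CPM over a median of 28.6 CPM to 323 CPM. All 3 d.p.i. values lay below all uninjured ones, and 1 library stood high at each of the other time points. The means were 99.4 CPM in uninjured, 13.5 CPM in 3 d.p.i. and 85.1 CPM in 14 d.p.i. samples. Without the highest library, an alternative chosen after the data were seen, they were 52.5 CPM in uninjured (without replicate 4) and 37.4 CPM in 14 d.p.i. samples (without replicate 5). The lymphatic-like cells numbered 19, 5 and 29 at the same time points. The log2 change at 3 d.p.i. against uninjured was -2.93 ± 1.18 and did not pass (edgeR adjusted p = 0.154, with 6.81% of 13412 genes passing).

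cxcl12b was a gene of the coronary-like endothelium and of mural cells. Coronary-like cells, an endothelial cluster named from capillary and coronary genes such as aplnra (170 CPM in it against 34.9 CPM in the other endothelial cells), had 1905 ± 1380 CPM (n = 13), and mural cells 1701 ± 1373 CPM (n = 9). The order of these classes was not settled over all time points, with coronary-like cells higher in 5 of 9 samples (exact permutation, adjusted p = 1 over 72 pairs). It differed between time points. In uninjured samples mural cells averaged 3153 CPM (n = 3) and coronary-like cells 835 CPM (n = 4). At 14 d.p.i. mural cells averaged 1148 CPM (n = 5) and coronary-like cells 2857 CPM (n = 6). The order within a time point was not tested. Mural cells were above the next class, the other epicardial cells at 9.33 CPM, in 9 of 9 samples, with an exact permutation p of 0.00391 and an adjusted p of 0.0562.

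Part of the coronary-like cells carried RNA of mural genes. At least 1 UMI of rgs5a, pdgfrb or notch3, which mark mural cells, was found in 36.5% of the 740 coronary-like cells, in 99.0% of the 313 mural cells and in 5.73% of the other endothelial cells. In coronary-like cells rgs5a averaged 880 CPM against 3738 CPM in mural cells, pdgfrb 283 against 1751 CPM and notch3 199 against 1258 CPM, whereas cdh5 averaged 1426 against 70.1 CPM. The 446 coronary-like cells without a UMI of the 3 mural genes, in the 10 libraries with at least 10 of them, had a mean of 1418 CPM, with 414 CPM in uninjured (n = 2), 1178 CPM in 3 d.p.i. (n = 2) and 1832 CPM in 14 d.p.i. samples (914 to 2396 CPM, n = 6). The 254 cells with such a UMI, again in 10 libraries, had a mean of 2385 CPM, with 1228 CPM in uninjured (n = 3), 2178 CPM in 3 d.p.i. (n = 1) and 2999 CPM in 14 d.p.i. samples (n = 6). A deeper cell holds such a UMI more readily, so cells without one need not lack mural RNA. The part of depth and of doublets in this split was not tested.

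Over time, cxcl12b in coronary-like cells was higher in every injured sample than in 3 of the 4 uninjured samples, and the fourth decided the test. The uninjured samples had 177, 346, 2537 and 279.9 CPM. The 3 d.p.i. samples had 831, 1551 and 1905 CPM, and the 14 d.p.i. samples ran from 1279 CPM over a median of 2699 CPM to 4879 CPM. Uninjured replicate 3 stood among the injured samples and the other uninjured samples below all of them. In that replicate the 20 coronary-like cells with a UMI of a mural gene had 3025 CPM of cxcl12b and the 24 cells without one 556.6 CPM. The former were deeper, with 361283 non-mitochondrial UMIs in total against 109601. The log2 change was 0.85 ± 0.73 at 3 d.p.i. (edgeR adjusted p = 0.512, with 4.89% of 5767 genes passing) and 1.77 ± 0.66 at 14 d.p.i. (adjusted p = 0.260, with 1.02% passing). Uninjured replicate 3 was singled out by this same level after the data were seen, so leaving it out is no separate test. Without it the log2 changes became 2.27 (edgeR adjusted p = 0.0443) and 3.21 (adjusted p = 0.00533). Without uninjured replicates 1 and 2 they were 0.14 (edgeR adjusted p = 0.936) and 1.09 (adjusted p = 0.519).

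The share of coronary-like cells with a cxcl12b UMI did not have that exception. It was 44.2% ± 4.83 in uninjured, 82.5% ± 4.33 in 3 d.p.i. and 68.6% ± 8.36 in 14 d.p.i. samples (SD, n = 4, 3 and 6). After thinning to 1000 UMIs it was 26.3%, 48.3% and 51.7%. In erythroid cells it was 0.11%. The exact permutation test gave p = 0.00952 for 14 d.p.i. against uninjured, the smallest that 6 against 4 samples allow, with an adjusted p of 0.445 over the 179 comparisons.

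In mural cells cxcl12b was not called. The uninjured samples with enough cells had 1783, 4013 and 3662 CPM, and those at 14 d.p.i. 1693, 538, 304, 1503 and 1701 CPM. All 14 d.p.i. values lay below all uninjured ones, from 5 against 3 samples with 236 and 42 cells. As a log2 change this gave -1.53 ± 0.53 (edgeR adjusted p = 0.242, with 1.12% of 891 genes passing). With classes from a per-cell marker score it was 1.75, the opposite direction. For cxcl12a in the same cells it was -0.90 ± 0.44 (adjusted p = 0.354). At 3 d.p.i. only 1 sample held 10 mural cells or more, with 110.3 CPM of cxcl12b and 76.3 CPM of cxcl12a.

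The low cxcl12b level of the epicardial class as a whole was lower in CPM at 3 d.p.i., read from 30 UMIs against 59 in uninjured samples. Uninjured samples had 9.07, 9.57, 9.79 and 13.03 CPM, 3 d.p.i. samples 1.39, 2.32 and 2.50 CPM, and 14 d.p.i. samples 1.80 CPM to 28.2 CPM with a median of 7.12 CPM. The groups uninjured and 3 d.p.i. did not overlap, and the 14 d.p.i. group spanned both. The log2 change was -2.47 ± 0.76 at 3 d.p.i. against uninjured (edgeR adjusted p = 0.0242; 14.0% of genes passed downwards) and 2.30 ± 0.72 at 14 against 3 d.p.i. (adjusted p = 0.0272; 11.8% passed upwards). Leaving out 1 sample gave edgeR adjusted p-values from 0.0139 to 0.0843 and from 0.0131 to 0.0989. With classes from a per-cell marker score the change at 3 d.p.i. was -2.20 and did not pass (edgeR adjusted p = 0.0503), while epicardial cxcl12a was called there, at 1.68 (adjusted p = 0.00617). The levels stood far below those in coronary-like cells, and the summed endothelial markers in the epicardial class ran from 39.0 to 144 CPM, with all 20 of 20 found. Their part in the cxcl12b level was not tested.

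**Figure D2:**
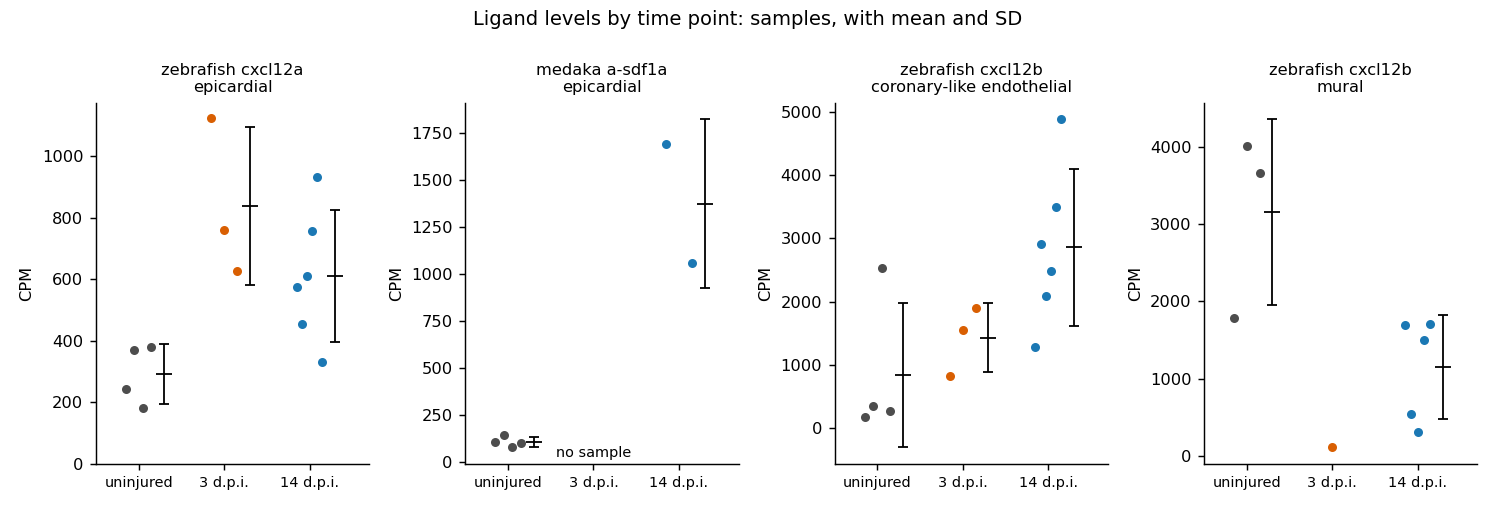
Level of the ligand genes by time point, in CPM, with 1 point per sample and the mean ± SD of each group. Epicardial cxcl12a in zebrafish is above uninjured in all 3 samples at 3 d.p.i., cxcl12b in coronary-like cells has 1 uninjured sample at 2537 CPM among the injured values, and medaka epicardial a-sdf1a is at 1693 and 1058 CPM at 14 d.p.i.

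cxcr4b was the receptor gene of zebrafish leukocytes. Leukocytes had 958 ± 519 CPM, against 8.71 CPM in thrombocytes, the next class, and were higher in 13 of 13 samples (exact permutation, adjusted p = 0.00879). Among leukocytes the mean was 1972 CPM in granulocytes, 1152 CPM in B cells, 1067 CPM in T/NK cells and 818 CPM in macrophages, names that rest on markers such as mpx, cd79a, lck and mpeg1.1. Leukocytes without a named type had 290 CPM in uninjured (n = 2) and 383 CPM in 14 d.p.i. samples (n = 3). Coronary-like endothelial cells followed at 57.4 CPM and were above thrombocytes in 12 of 13 samples (exact permutation, adjusted p = 0.0176).

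Leukocyte cxcr4b varied widely within each group and passed in no time comparison. The uninjured samples had 1319, 1830, 532 and 441 CPM, those at 3 d.p.i. 826, 488 and 354 CPM, and those at 14 d.p.i. ran from 561 CPM over a median of 947 CPM to 1934 CPM. The higher uninjured values are replicates 1 and 2, the libraries counted on another gene list. The log2 change at 3 d.p.i. was -1.01 ± 0.58 (edgeR adjusted p = 0.279, with 6.70% of 5077 genes passing) and, without those replicates, 0.41 (adjusted p = 0.584). At 14 d.p.i. it was -0.18, and 1.22 without them (edgeR adjusted p = 0.159, with 0.827% of genes passing in the comparison of all samples). The direction thus turned with the choice of uninjured libraries.

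Macrophages and T/NK cells gave no call either. Macrophage cxcr4b was 1231, 1823, 614 and 88.3 CPM in uninjured samples, 483, 191 and 209 CPM at 3 d.p.i. and 559 to 1890 CPM at 14 d.p.i. Its log2 change at 3 d.p.i. was -2.02 ± 0.73 (edgeR adjusted p = 0.0911, with 8.91% of genes passing), and 0.12 without uninjured replicates 1 and 2. T/NK cells had 1446, 1658, 309.6 and 271 CPM in uninjured samples against 1335, 2613 and 1423 CPM at 3 d.p.i., a log2 change of 0.84 (edgeR adjusted p = 0.623), and of 1.98 ± 0.70 without uninjured replicates 1 and 2 (adjusted p = 0.164). B cells were numerous enough only after injury, with 915, 1104 and 912 CPM at 3 d.p.i. and 575 to 2372 CPM at 14 d.p.i.

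The share of leukocytes with a cxcr4b UMI had means of 57.4%, 53.6% and 60.9% in uninjured, 3 d.p.i. and 14 d.p.i. samples. Thinned to 1000 UMIs it was 49.6%, 36.8% and 53.6%. The share among erythroid cells was 0.34%.

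cxcr4a was read in lymphocytes and in coronary-like endothelium. Mean levels were 169 ± 100 CPM in B cells (n = 8), 128 ± 83.7 CPM in T/NK cells (n = 12) and 117 ± 158 CPM in coronary-like cells (n = 13), an order within the spread between samples. As a class, leukocytes had 36.4 CPM and endothelial cells 12.5 CPM, with leukocytes higher in 8 of 13 samples (exact permutation p = 0.0640, adjusted p = 0.256).

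In coronary-like cells cxcr4a was 7.37, 6.66, 55.0 and 21.2 CPM in uninjured samples and 83.1, 270.1 and 44.8 CPM at 3 d.p.i. At 14 d.p.i. it ran from 10.7 CPM over a median of 106 CPM to 559.8 CPM. Uninjured replicate 3, the sample with the high cxcl12b, again lay highest of its group and inside the 3 d.p.i. range. edgeR's log2 change was 2.39 ± 1.09 at 3 d.p.i. (edgeR adjusted p = 0.205) and 2.52 ± 1.00 at 14 d.p.i. (adjusted p = 0.297). cxcr4b in the same cells was 22.1, 20.0, 24.2 and 11.1 CPM in uninjured samples, 6.93, 142 and 67.2 CPM at 3 d.p.i. and 16.4 to 164 CPM at 14 d.p.i. Its change of 2.12 ± 0.78 at 3 d.p.i. did not pass (edgeR adjusted p = 0.124), though it did without 3 d.p.i. replicate 1, with 2.55 and an adjusted p of 0.0491. That replicate, at 6.93 CPM, was the lowest of the 3 d.p.i. samples, so leaving it out is no separate test.

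In leukocytes cxcr4a had 16.5 to 82.9 CPM in uninjured, 30.8 to 97.5 CPM in 3 d.p.i. and 0 to 45.9 CPM in 14 d.p.i. samples. The log2 change was 0.11 at 3 d.p.i. (edgeR adjusted p = 0.950) and -1.42 at 14 d.p.i. (adjusted p = 0.380). Without uninjured replicates 1 and 2 these were 1.74 (edgeR adjusted p = 0.235) and 0.24 (adjusted p = 0.915), so the direction at 14 d.p.i. turned. T/NK cells held 187, 243, 18.2 and 90.4 CPM in uninjured samples and 50.1, 177 and 237 CPM at 3 d.p.i. These groups overlap fully.

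ackr3b, the gene of the ligand-removing receptor, was highest in coronary-like endothelium at 191 ± 78.4 CPM (n = 13). The other endothelial cells, which held the endocardial marker spock3 at 6776 CPM, had 35.9 ± 23.8 CPM and were lower in 13 of 13 samples (exact permutation, adjusted p = 0.0176). The other epicardial cells at 28.8 CPM, mural cells at 27.7 CPM and fibroblast-like epicardial cells at 18.0 CPM followed. Endothelial cells as a class, at 51.8 CPM, were above mural cells in 7 of 9 samples without passing after adjustment (exact permutation p = 0.0195, adjusted p = 0.10). The log2 difference was -0.64, the opposite direction, where classes came from a per-cell marker score. The epicardial class, at 25.3 CPM, was above thrombocytes, at 4.19 CPM, in 12 of 13 samples (exact permutation, adjusted p = 0.00879).

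ackr3b did not pass in any time comparison of these classes. Coronary-like cells had 177, 153, 149 and 105 CPM in uninjured samples, 145, 339.6 and 251 CPM at 3 d.p.i. and 87.7 to 341 CPM at 14 d.p.i., with a median of 185 CPM. The groups overlapped. By log2 fold change this was 0.72 ± 0.40 at 3 d.p.i. (edgeR adjusted p = 0.286) and 0.21 at 14 d.p.i. (adjusted p = 0.859), and without uninjured replicates 1 and 2 it was 1.00 (adjusted p = 0.182) and 0.52 (adjusted p = 0.580). In epicardial cells the level was 29.8, 34.2, 24.9 and 29.5 CPM in uninjured, 12.5, 23.1 and 28.9 CPM in 3 d.p.i. and 5.17 to 63.7 CPM in 14 d.p.i. samples. The second copy, ackr3a, had 12 UMIs in all zebrafish cells together and was not tested.

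**Figure D3:**
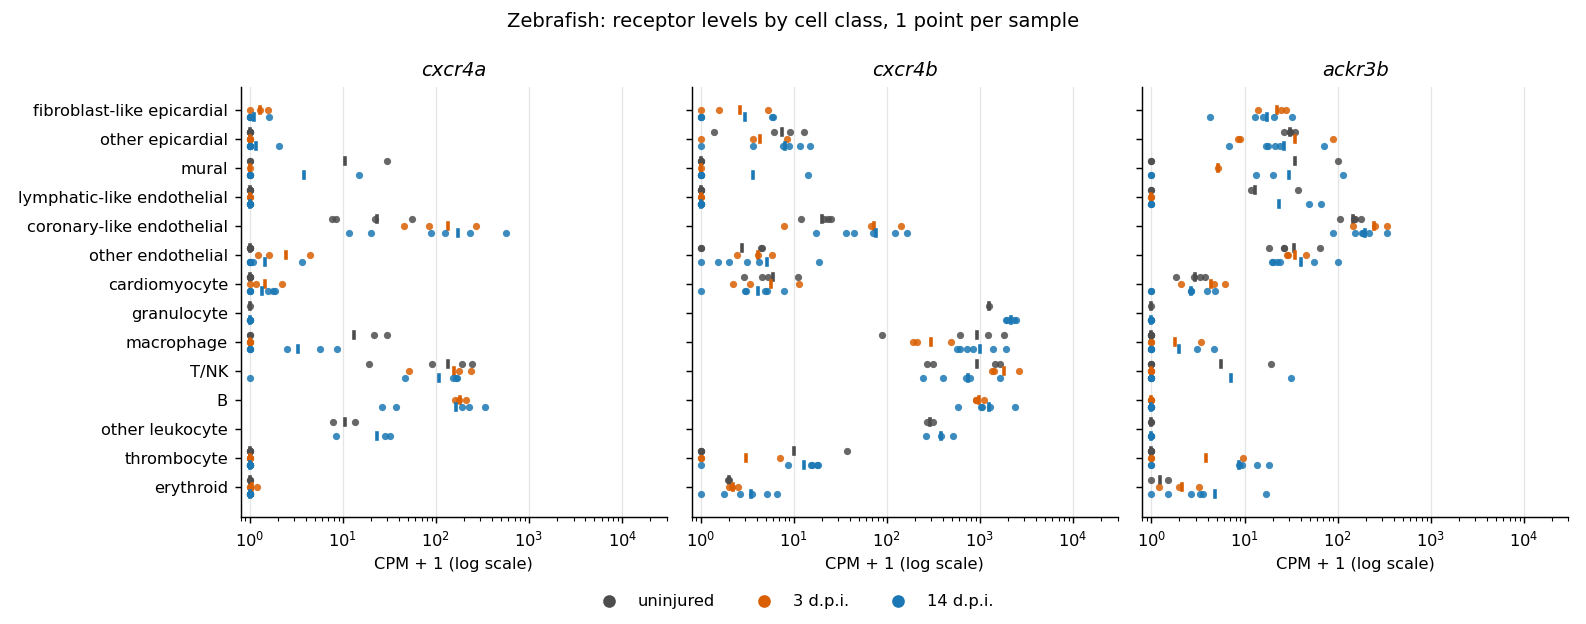
Level of cxcr4a, cxcr4b and ackr3b in zebrafish cell classes on a log scale of CPM + 1, with 1 point per sample with at least 10 cells of the class, coloured by time point, and a tick at the mean. Leukocyte classes lead for cxcr4b, coronary-like endothelial cells for ackr3b (mean 191 CPM), and both kinds of cell hold cxcr4a.

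Coronary-like cells therefore held the ligand gene cxcl12b and receptor genes in the same barcodes. Of the 740 cells, 483 had a UMI of cxcl12b, 349 of ackr3b and 253 of both. cxcr4a was found in 220 cells, of which 191 (86.8%) also had cxcl12b, and in 11.3% of the cells without cxcl12b. cxcr4b was found in 153 cells, and 90 cells had both cxcr4a and cxcr4b. Cells with cxcl12b were deeper, at a median of 7601 against 3915 UMIs, and the part of depth in these overlaps was not tested. Among the 3122 leukocytes, 1852 had a UMI of cxcr4b, 211 of cxcr4a and 173 of both.

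Over the 5 zebrafish genes, 15 combinations of a gene and a broad class could be tested at 3 d.p.i. against uninjured. Of these, 2 passed, epicardial cxcl12a upwards and epicardial cxcl12b downwards. At 14 d.p.i. against uninjured 0 of 17 passed with edgeR, and DESeq2 called 1. At 14 against 3 d.p.i. 1 of 15 passed, epicardial cxcl12b upwards, in a class where 27.6% of all genes passed. Over all genes the share that passed at 3 d.p.i. was 30.0% in epicardial, 6.81% in endothelial and 6.70% in leukocyte cells, so the 2 calls among the 4 genes tested in epicardial cells are read against the highest of these shares.

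The UMIs of each gene came from few classes, and which class led changed with time for cxcl12a. Of 4045 zebrafish cxcl12a UMIs in uninjured hearts, 43.1% came from lymphatic-like and 40.9% from other epicardial cells. At 3 d.p.i. fibroblast-like epicardial cells gave 90.0% of 12686 UMIs. At 14 d.p.i. other epicardial cells gave 44.8% of 13245 UMIs, lymphatic-like cells 22.3%, fibroblast-like cells 15.9% and cells without a class 12.5%. Of the 2949 lymphatic-like UMIs at 14 d.p.i., 2371 came from 18 cells of replicate 5. Without that library the lymphatic-like share was 7.05% of 8194 UMIs. These shares pool samples and follow how many cells of a class were captured as well as their level.

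Coronary-like cells gave most cxcl12b throughout, with 76.1% of 2014, 89.8% of 2174 and 91.7% of 9984 UMIs at the 3 time points in order. For cxcr4a the main source changed. T/NK cells (39.7%) and coronary-like cells (38.2%) gave most of the 131 uninjured UMIs, coronary-like cells (49.5%) and B cells (36.8%) most of 410 at 3 d.p.i., and coronary-like cells 81.3% of 802 at 14 d.p.i. For cxcr4b macrophages gave 40.5% of 1990 uninjured UMIs, B cells 44.7% of 1826 at 3 d.p.i. and macrophages 43.8% of 5568 at 14 d.p.i. For ackr3b other endothelial cells gave 52.5% of 1296, 46.6% of 1442 and 50.0% of 2607 UMIs.

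**Figure D4:**
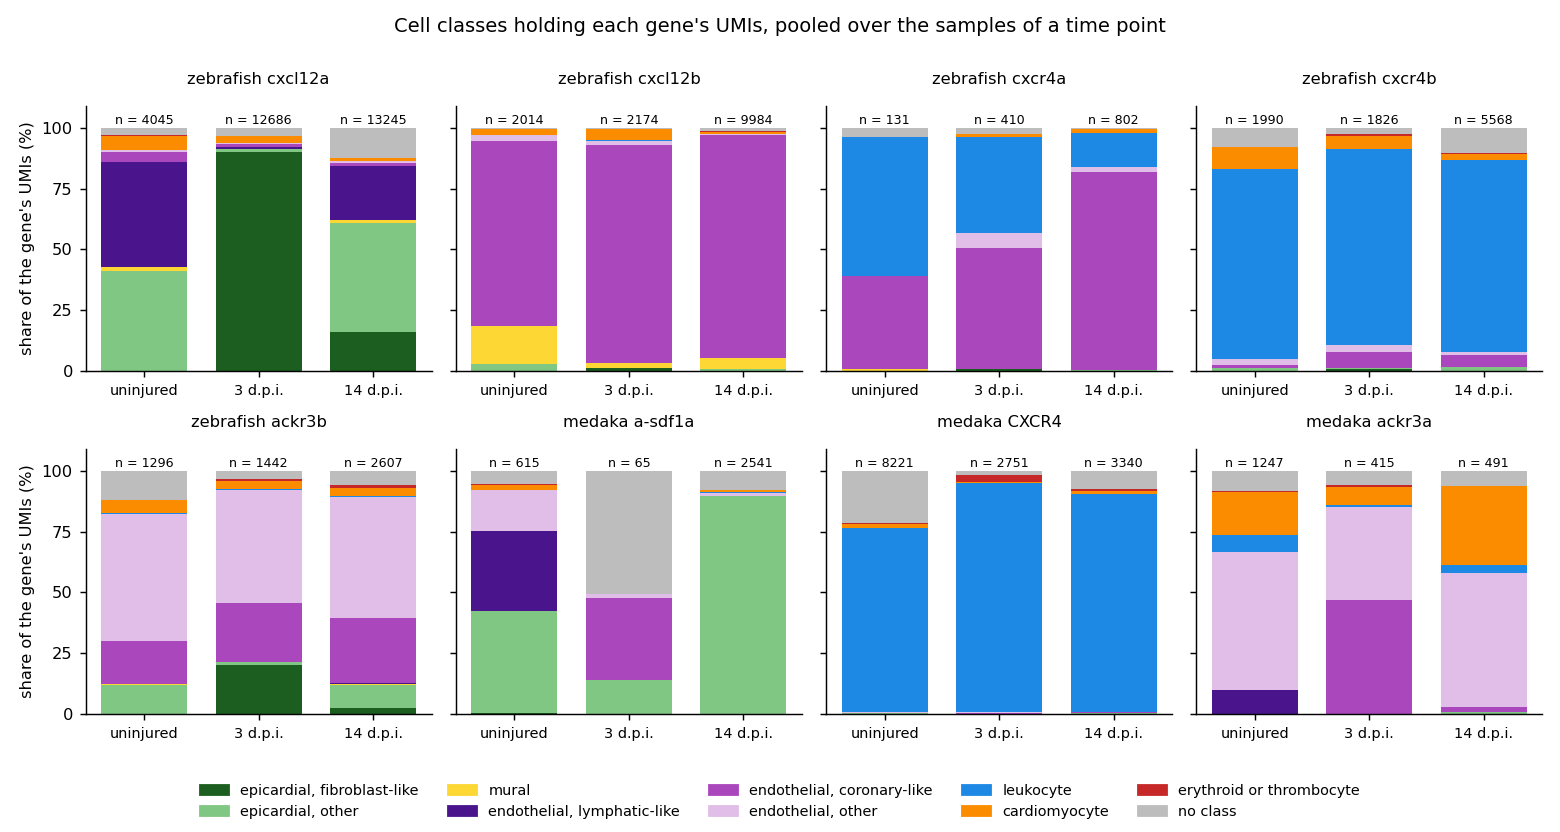
Share of the pooled UMIs of each gene that came from each cell class, in percent, by time point, with the number of UMIs above each bar. Fibroblast-like epicardial cells give 90.0% of zebrafish cxcl12a at 3 d.p.i., and other epicardial cells give 89.6% of medaka a-sdf1a at 14 d.p.i.

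In medaka the ligand gene a-sdf1a was read in epicardial cells. Their mean was 529 ± 686 CPM (n = 6), against 8.20 ± 13.03 CPM in endothelial cells (n = 9) and 0.51 CPM in cardiomyocytes. Epicardial cells were higher than endothelial cells in 6 of 6 samples (exact permutation p = 0.0312, the smallest that 6 samples allow, adjusted p = 0.195). The gene named cxcl12 (ENSORLG00000015121) had 1 UMI in all medaka cells. No medaka cluster could be named mural. The mural markers in the medaka epicardial class summed to between 2781 and 5806 CPM in uninjured and 3203 to 3379 CPM in 14 d.p.i. samples, so mural cells cannot be told apart from epicardial cells there.

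At 14 d.p.i. a-sdf1a was far higher in the medaka epicardial class. Uninjured samples had 104, 142, 76.8 and 99.3 CPM and the 14 d.p.i. samples 1693 and 1058 CPM, from 162, 137, 33, 104, 54 and 106 cells in that order. The groups did not overlap, and both 14 d.p.i. samples were many times above the highest uninjured sample. The log2 fold change was 3.86 ± 0.33 (edgeR adjusted p = 3.57e-05), in a comparison where 2.79% of 6373 genes passed and 2.37% upwards. It stayed between 3.60 and 4.09 when any 1 sample was left out, with edgeR adjusted p-values from 0.000105 to 0.000441. Without either 14 d.p.i. sample the lone sample left is assumed to vary like the other groups. Where cells were classed by a per-cell marker score in place of clusters, it was 3.67 with an adjusted p of 0.128. The epicardial markers summed to between 8287 and 8972 CPM in uninjured and between 9633 and 11104 CPM in 14 d.p.i. samples, and the endothelial markers to between 77.0 and 196 CPM and between 176 and 554 CPM. The share of epicardial cells with a UMI was 18.7% in uninjured and 45.6% in 14 d.p.i. samples.

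At 3 d.p.i. the medaka samples held 0, 1 and 6 epicardial cells, so the class was not tested there. Over all cells, a-sdf1a was at 7.97, 7.56, 10.5 and 4.75 CPM in uninjured, 1.26, 0.541 and 2.89 CPM in 3 d.p.i. and 81.5 and 33.2 CPM in 14 d.p.i. samples. The 3 groups did not overlap. The log2 change was -2.31 at 3 d.p.i. against uninjured (edgeR adjusted p = 0.0149, with 30.6% of 15382 genes passing), 5.05 at 14 against 3 d.p.i. (adjusted p = 0.0142, with 11.9% passing) and 2.73 at 14 d.p.i. against uninjured (adjusted p = 0.0569, with 0.774% passing). The epicardial class held 436 of 14462 cells in uninjured, 7 of 9092 in 3 d.p.i. and 160 of 8175 in 14 d.p.i. samples, and its part in the values of all cells was not tested.

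Of the 65 a-sdf1a UMIs at 3 d.p.i., 33.8% were in coronary-like endothelial cells and 50.8% in cells without a class. Other epicardial cells had given 42.0% of 615 UMIs in uninjured hearts, with 32.7% from lymphatic-like cells, and gave 89.6% of 2541 at 14 d.p.i. In medaka nearly all lymphatic-like cells, 493 of 499, were in uninjured replicate 3, where they held 197 of the 225 endothelial a-sdf1a UMIs. They were most of the 752 endothelial cells of that library. Their name rests on the marker lists, and a cell type cannot be told apart from a trait of that library.

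The endothelial level of a-sdf1a was 9.60, 6.13, 42.0 and 4.41 CPM in uninjured, 3.41, 1.90 and 0.328 CPM in 3 d.p.i. and 5.76 and 0.274 CPM in 14 d.p.i. samples. All 3 d.p.i. values were below all uninjured ones. The log2 change at 3 d.p.i. was -2.94 ± 1.07 and narrowly did not pass (edgeR adjusted p = 0.0597, with 33.0% of 12031 genes passing, while DESeq2 called it). Endothelial cells that were neither coronary-like nor lymphatic-like had 104 UMIs in uninjured and 1 UMI in 3 d.p.i. samples, a difference that passed (edgeR adjusted p = 0.0138, with 48.2% of genes passing). Coronary-like cells, which are outside this class, were 348 of the 699 endothelial cells at 3 d.p.i. and held 22 of their 23 a-sdf1a UMIs, and there were 0 of them in uninjured samples.

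**Figure D5:**
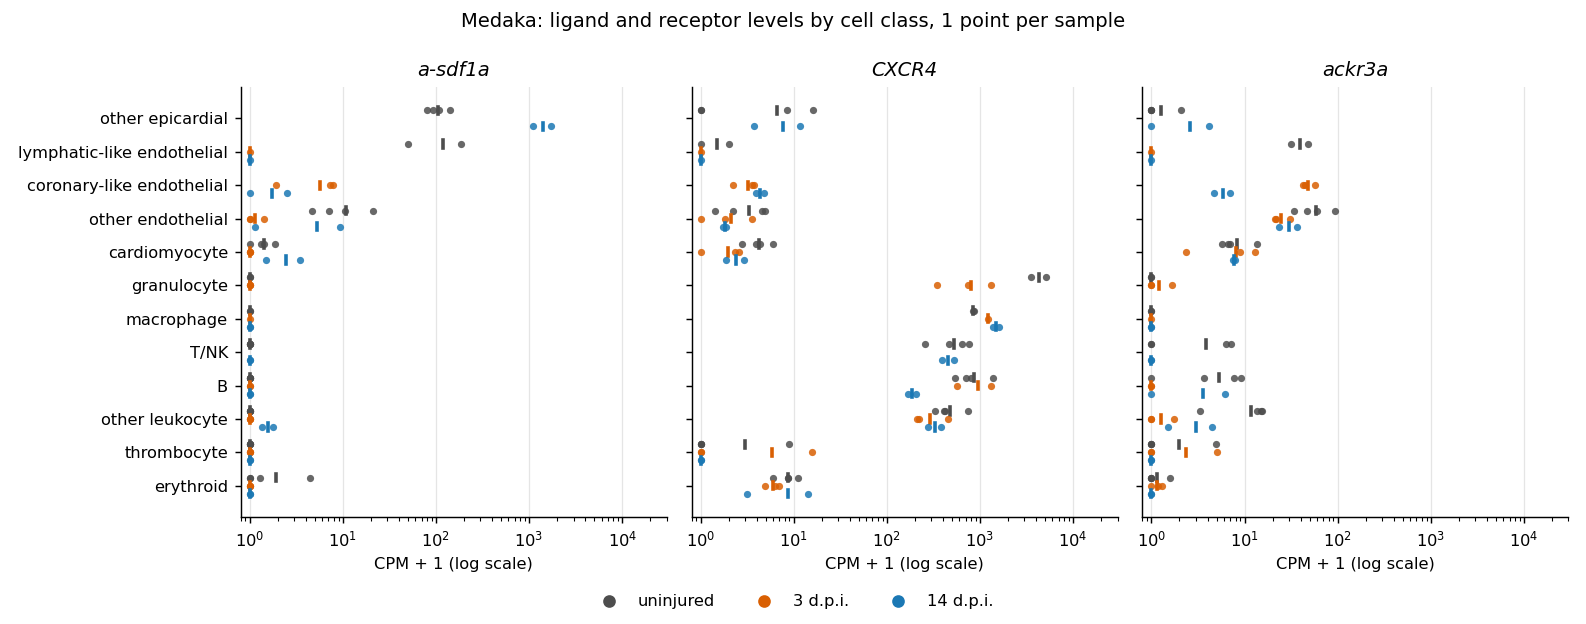
Level of a-sdf1a, CXCR4 and ackr3a in medaka cell classes on a log scale of CPM + 1, with 1 point per sample with at least 10 cells of the class (any number of lymphatic-like cells), coloured by time point, and a tick at the mean. Epicardial cells lead for a-sdf1a (mean 529 CPM), leukocyte classes for CXCR4 and endothelial cells for ackr3a.

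The medaka receptor genes were read in leukocytes and in endothelium. CXCR4 (ENSORLG00000029079) averaged 469 CPM in leukocytes and 6.80 CPM in erythroid cells, the next class (higher in 9 of 9 samples, exact permutation, adjusted p = 0.0488). Granulocytes had 2209 CPM (n = 5), macrophages 1174 CPM (n = 5), B cells 710 CPM (n = 8) and T/NK cells 507 CPM (n = 6) on average, from unlike samples. Of the 7016 leukocytes, 4601 had no named type. Those averaged 472 CPM in uninjured, 291 CPM in 3 d.p.i. and 329 CPM in 14 d.p.i. samples. ackr3a (ENSORLG00000017874) averaged 36.2 CPM in endothelial cells and 7.10 CPM in cardiomyocytes, again higher in 9 of 9 samples (exact permutation, adjusted p = 0.0488). Both adjusted p-values lay between 0.0651 and 0.0977 when any 1 sample was left out. The copy named cxcr4a (ENSORLG00000011337) had 88 UMIs in all medaka cells.

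CXCR4 fell in medaka leukocytes at 3 d.p.i. The level was 506, 365, 679 and 862 CPM in uninjured, 294, 554 and 260.0 CPM in 3 d.p.i. and 393 and 305 CPM in 14 d.p.i. samples. The groups uninjured and 3 d.p.i. overlapped in 3 d.p.i. replicate 2. The change on the log2 scale was -1.21 ± 0.30 (edgeR adjusted p = 0.0138), where 25.7% of 10629 genes passed, and the adjusted p ran from 0.00637 to 0.0649 when 1 sample was left out. In granulocytes the change was -2.39 ± 0.56 (edgeR adjusted p = 0.00782, with 22.8% of genes passing), from 3505 and 5126 CPM in uninjured and 347, 748 and 1322 CPM in 3 d.p.i. samples. These 3 d.p.i. granulocytes had unlike depths, with medians of 4087, 729.5 and 939 UMIs per cell. Leukocytes without a named type changed by -1.20 and B cells by -0.0025. Granulocytes were 155 of 3404 leukocytes in uninjured and 464 of 1246 in 3 d.p.i. samples, and the part of this make-up was not tested. The share of leukocytes with a CXCR4 UMI was 52.9% in uninjured, 52.8% in 3 d.p.i. and 40.9% in 14 d.p.i. samples, with a median of 2486 UMIs per cell in uninjured and 5447 UMIs in 3 d.p.i. leukocytes. Thinned to 1000 UMIs per cell it was 36.5%, 26.4% and 24.8%. The share in erythroid cells, which should lack the gene, was 1.32% at a median of 1260 UMIs.

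ackr3a in medaka endothelium was 32.8, 45.6, 46.7 and 59.3 CPM in uninjured, 36.2, 25.9 and 33.1 CPM in 3 d.p.i. and 25.6 and 20.9 CPM in 14 d.p.i. samples. The change at 3 d.p.i. was -0.54 ± 0.19 for the whole class (edgeR adjusted p = 0.0568). Endothelial cells other than coronary-like and lymphatic-like had 29.5, 20.8 and 20.4 CPM at 3 d.p.i. against 32.8, 45.6, 91.8 and 59.3 CPM, a change of -1.16 that passed (adjusted p = 0.00687, with 48.2% of genes passing). This change depends on leaving out the coronary-like cells, which this clustering set apart in medaka only after injury. The subset also leaves out 493 lymphatic-like cells of uninjured replicate 3, which had 46.7 CPM as a whole class and 91.8 CPM without them. The study shows coronary endothelial cells of medaka at all time points. The cells named coronary-like here had 43.0, 41.0 and 56.3 CPM at 3 d.p.i. and 3.75 and 5.97 CPM at 14 d.p.i. The fall between those time points was 2.94 on the log2 scale (edgeR adjusted p = 0.00979), where 3.26% of genes passed. In leukocytes ackr3a was low, with 89 UMIs in uninjured and 3 UMIs in 3 d.p.i. samples. Its log2 change there was -4.89 ± 1.06 and passed (edgeR adjusted p = 0.00883, with 25.7% of genes passing).

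The change of the ligand gene in the epicardial class at 14 d.p.i. differed between the species. In 1 fit over both, the log2 change against uninjured was 1.07 for zebrafish cxcl12a and 3.93 for medaka a-sdf1a, a difference of -2.86 ± 0.54 (edgeR adjusted p = 0.0224, with 0.355% of 7315 genes paired by symbol passing). This comparison was added after the data were seen, since medaka had too few epicardial cells at 3 d.p.i. The genes were paired by name as ligand genes. The classes are unlike too, since mural cells formed a class of their own in zebrafish but could not be told apart from epicardial cells in medaka. With classes from a per-cell marker score the medaka change itself did not pass. Leaving out 1 sample gave differences from -3.10 to -2.51 and edgeR adjusted p-values from 0.0172 to 0.219. The call was lost without zebrafish 14 d.p.i. replicate 1, medaka uninjured replicate 1 or either medaka 14 d.p.i. sample. In endothelial cells at 3 d.p.i. the changes were -2.94 in zebrafish and -3.04 in medaka, with a difference of 0.10 ± 0.96 (adjusted p = 0.992, with 5.04% of 9398 genes passing), an interval too wide to call them alike.

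Other genes of the pathway were read from a list of regulators and partners. Of 23 such genes in the zebrafish table, 20 could be tested in epicardial cells, where 1 was higher and 2 lower at 3 d.p.i. against uninjured (30.0% of all genes passed), and the list's median log2 change was -0.07 against -0.01 over all genes tested. The higher one was mif, a cytokine that also binds Cxcr4. It had 51.8, 83.4, 142 and 70.9 CPM in uninjured and 310.3, 443 and 337 CPM in 3 d.p.i. samples, a log2 change of 1.97 ± 0.37 (edgeR adjusted p = 0.00170). All 3 d.p.i. values were above all uninjured ones. The lower ones were jak2b, a kinase gene, at -1.09 ± 0.34 (edgeR adjusted p = 0.0235), and hif1al, whose change of -4.53 became -0.52 without uninjured replicates 1 and 2.

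At 14 against 3 d.p.i. in zebrafish epicardial cells, mif fell by 1.56 on the log2 scale (edgeR adjusted p = 0.00313) and mmp2, a protease gene whose product cleaves Cxcl12, rose by 0.98 ± 0.28 (adjusted p = 0.0167), where 27.6% of all genes passed. In medaka epicardial cells at 14 d.p.i. against uninjured, 2 of 9 tested genes passed, both upwards, beside 2.79% of all genes. mmp2 went from 380, 351, 138 and 264 CPM to 1156 and 959 CPM, a change of 2.08 ± 0.36 (edgeR adjusted p = 0.00836), and mif from 37.3, 41.4, 66.5 and 22.7 CPM to 108 and 120 CPM, a change of 1.70 ± 0.38 (adjusted p = 0.0283). The median of the list was 0.18 against -0.04 over all genes. In medaka leukocytes 1 of 13 tested genes passed at 3 d.p.i., where 25.7% of all genes did, mif with a change of 2.04 ± 0.30 (edgeR adjusted p = 0.00129), and it passed again at 14 d.p.i. with 1.63 ± 0.33 (adjusted p = 0.0497, with 0.913% of all genes passing). In medaka endothelial cells 3 of 13 passed at 3 d.p.i., where 33.0% of all genes did. These were mif at 2.52 ± 0.35, the protease gene mmp9 at 2.56 ± 0.80 and jak2a at -0.55 ± 0.15 (edgeR adjusted p = 0.00115, 0.0356 and 0.0209). In the other classes of zebrafish, gnai1 was lower in cardiomyocytes at 3 d.p.i. (2.37% of all genes passed), and in erythroid cells grk3 and itcha were higher and hif1al lower at both 3 and 14 d.p.i. and mmp9 higher at 3 d.p.i. (15.3% and 16.2% passed). The erythroid comparison had only uninjured replicates 1 and 2 on the uninjured side, so it cannot be told apart from their other software version and gene list. In medaka, mif was higher in cardiomyocytes at 3 d.p.i. (3.38% passed) and in thrombocytes at 3 and 14 d.p.i. (29.5% and 9.10% passed).

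The genes whose levels ran most like those of each gene were found over 137 profiles of a class in a sample in zebrafish (14 classes) and 81 in medaka (12 classes), as Pearson's r of log2(CPM + 1) over profiles that share libraries and depth. For cxcl12a they were itih5 (r = 0.902), vim (0.894) and snai2 (0.892), genes of mesenchymal cells. For cxcl12b they were atp1a1b (0.898), rgs5a (0.897) and ebf1b (0.894), of which rgs5a is a mural marker. For cxcr4b they were lcp1 (0.897), a pan-leukocyte gene, si:rp71-68n21.9 (0.878) and myo1f (0.875).

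For ackr3b the leading genes were kaznb (0.820), ppfibp1a (0.819) and map4k2 (0.818), and for cxcr4a skap1 (0.665), si:dkey-183p4.10 (0.622) and si:ch1073-220m6.1 (0.613), the weakest set. For medaka a-sdf1a they were pgfb (0.930), otc (0.895) and cpxm1b (0.893). Between the genes of the axis, r was 0.569 for cxcl12a with cxcl12b, 0.600 for cxcr4a with cxcr4b and 0.589 for cxcl12b with ackr3b.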

How the data were processed

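The samples were single-cell libraries of dissociated ventricles, 13 of zebrafish and 9 of medaka, grouped by species and time point as the labels give them. The deposited files hold raw UMI counts of genes in barcodes. The authors produced them by running Cell Ranger, with its default settings, on GRCz11 (zebrafish) and ASM223467v1 (medaka), without normalization or a filter on genes per cell. Headers name an earlier version (3.1.0) for zebrafish uninjured replicates 1 and 2 than for the other files (5.0.0).

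Barcodes with at least 200 genes and at most 40% mitochondrial UMIs, counted over symbols that begin with mt- or read mt, were kept. Each species was clustered on its own with scanpy 1.11.5 in Python 3.11.15 (counts scaled to 10000, 2000 variable genes without chemokine and chemokine receptor genes or the related list, 30 principal components, 20 neighbours, Leiden resolution 1.5, and 1 within a class), and clusters were named from marker lists. A marker counted as detected in at least 10% of a cluster's cells, a threshold set after the data were seen. Class names are therefore rebuilt ones and can differ from those of the study.

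Counts were summed per sample and class (at least 10 cells). They were tested with edgeR 4.0.16 in R 4.3.3 (quasi-likelihood, TMM, default filter on low counts, 1 fit over the 3 time points of a species) and Benjamini-Hochberg adjustment across every gene tested in that class. Calls took an adjusted p under 0.05. Neighbouring classes in the order of mean level were compared by the exact two-sided permutation of the class labels within samples, and shares of cells by the exact two-sided permutation over samples. Fold changes between species came from 1 edgeR fit over genes with the same symbol, plus cxcl12a paired with a-sdf1a. r was computed on log2(CPM + 1). Intervals of counts cover counting error only.

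Doublets stayed in. Scrublet's own threshold marked under 0.5% of cells and was set aside, and an alternative removed the top scores at 0.8% per 1000 barcodes. On simulated counts of the 3 d.p.i. comparison in zebrafish, 71.2% of 4-fold and 5.97% of 2-fold changes were recovered in epicardial cells, 84.8% and 8.96% in endothelial cells and 75.8% and 13.4% in leukocytes, so small changes could be missed. The simulation gave every gene the same fixed spread between samples. Larger changes of genes that vary more could therefore be missed too. Endothelial cxcr4a at 3 d.p.i., at a log2 change of 2.42 ± 1.34, did not pass. Alternatives were DESeq2 1.42.0 with its size factors, no filter on low counts, stricter barcode filters (15% mitochondrial UMIs, 500 genes), resolution 2.25, classes from a per-cell marker score, a replicate block, fits of only the groups compared, another pseudocount and leaving out samples. The genes, lists and tests were chosen with earlier results of these data known. The named genes are the 6 members, the same symbols in the other species, the related genes that passed in a broad class, and the 3 genes with the highest r for each member. Authors' cell type annotations and integration across species were not used here.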

Additional observations from a re-analysis of the deposited data

Results flagged for a closer look

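In the uninjured zebrafish group, coronary-like cxcl12b in replicate 3 (2537 CPM, from 44 cells and 1154 UMIs) lay far from the others, of which the nearest had 346 CPM and the lowest 177 CPM. In that replicate cxcl12b was at 3025 CPM in the 20 cells with a UMI of rgs5a, pdgfrb or notch3 and at 556.6 CPM in the 24 cells without, which were shallower. In zebrafish epicardial cells at 14 d.p.i., ackr3b in replicate 5 (63.7 CPM, from 362 cells) stood apart from a nearest value of 25.6 CPM and a lowest of 5.17 CPM. In medaka endothelial cells, a-sdf1a in uninjured replicate 3 (42.0 CPM) stood apart from a nearest value of 9.60 CPM and a lowest of 4.41 CPM, and that library held 493 of the 499 medaka lymphatic-like cells. These samples were singled out by the gap to their nearest neighbour relative to the range of the group. For normally distributed values chance picks about 1 in 20 groups by this rule. Whether CPM values are so distributed was not tested, and each sample singled out was the highest of its group.

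The epicardial response of the ligand gene at 14 d.p.i. differed between the species by -2.86 on the log2 scale (zebrafish cxcl12a minus medaka a-sdf1a), a test of the difference itself that was added after the data were seen and that rests on 2 medaka samples at 14 d.p.i.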

How the results depend on the processing

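Of 373 alternative values of 53 results, 339 kept their direction, size and side of the threshold. Epicardial cxcl12a at 14 d.p.i. against uninjured, which did not pass in edgeR, passed with DESeq2 (1.04) and with classes from a per-cell marker score (1.49), and medaka epicardial a-sdf1a at 14 d.p.i. did not pass with score classes (3.67, adjusted p = 0.128 by edgeR). Score classes turned epicardial cxcl12b at 14 d.p.i. to 0.0734, mural cxcl12b at 14 d.p.i. to 1.75 and ackr3b of endothelial against mural cells to -0.64, and they raised the log2 difference of cxcl12a between epicardial and mural cells to 1.32 and that of cxcl12b between mural and endothelial cells to 3.88, both then past the threshold. Without zebrafish uninjured replicates 1 and 2, the 3 d.p.i. change turned to 0.41 for cxcr4b in leukocytes and to 0.12 in macrophages, the 14 d.p.i. change in leukocytes to 1.22, that of leukocyte cxcr4a to 0.24 and the species difference at 3 d.p.i. to -0.26. Without the filter on low counts, T/NK cxcr4b at 3 d.p.i. turned to -0.0484. The cause of these shifts was not tested.

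The number of gene and class combinations that passed also moved. With DESeq2 it was 3, 1 and 2 in zebrafish (3 d.p.i. against uninjured, 14 d.p.i. against uninjured, 14 against 3 d.p.i.) against 2, 0 and 1 with edgeR, and 1 against 0 in medaka at 3 d.p.i. The medaka count was also 1 with only the 2 groups compared in the fit. With score classes it was 1 and 1 in zebrafish at 3 and 14 d.p.i. against uninjured, since epicardial cxcl12b at 3 d.p.i. no longer passed (-2.20, edgeR adjusted p = 0.0503) and epicardial cxcl12a at 14 d.p.i. did, and in medaka 0 at 14 d.p.i. against uninjured (in place of 1) and 1 at 14 against 3 d.p.i. (in place of 0).

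Replicate numbers did not pair the samples. Deviations of same-numbered samples had a mean correlation of -0.0199 in zebrafish and -0.0298 in medaka, and 13 of 125 and 1 of 70 pairs exceeded 0.1. With the replicate number as a block, epicardial cxcl12a changed by 1.51 at 3 d.p.i. and medaka epicardial a-sdf1a by 3.63 at 14 d.p.i., the calls at 14 d.p.i. against uninjured in zebrafish went to 1 and those at 14 against 3 d.p.i. to 0, with epicardial cxcl12b at 0.84.

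With 1 sample left out, the change of epicardial cxcl12a at 3 d.p.i. lay between 1.06 and 1.49, the species difference at 14 d.p.i. between -3.10 and -2.51 and that at 3 d.p.i. between -1.06 and 0.88. The log2 difference of cxcl12b between coronary-like and mural cells lay between -0.0194 and 0.92. The share of leukocytes with cxcr4b at 3 d.p.i. minus uninjured lay between -11.1 and 3.22 percentage points. The 14 d.p.i. change of leukocyte cxcr4b lay between -0.47 and 0.33, and the 3 d.p.i. change of leukocyte cxcr4a between -0.76 and 0.54. The 14 d.p.i. change of epicardial cxcl12b against uninjured lay between -0.53 and 0.0889. For each range that takes in both signs, the direction depended on the samples used. The change of cxcl12a in other epicardial cells at 14 against 3 d.p.i. lay between 1.64 and 2.82 and did not pass without 2 of the samples in turn. Depth limits cxcr4a, with 1343 UMIs in all zebrafish cells, and the mural and lymphatic-like classes, with 313 and 53 cells.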
